A study of Arabidopsis thaliana with 16 samples.

Results

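The 10 genes described here encode enzymes that make inositol phosphates and inositol pyrophosphates in Arabidopsis thaliana. They were taken by locus identifier, as 10 of the 32678 loci counted in each library, and all 10 passed the filter on low counts in both organs. They comprise the myo-inositol-3-phosphate synthases MIPS1, MIPS2 and MIPS3, the inositol polyphosphate kinases IPK2A, IPK2B and IPK1, the inositol tris/tetrakisphosphate kinases ITPK1 and ITPK4, and the diphosphoinositol pentakisphosphate kinases of the VIH type, AT3G01310 and AT5G15070. The VIH-type genes are called by locus because their numbering as VIH1 and VIH2 differs between sources.

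The synthases convert glucose 6-phosphate to inositol phosphate, the entry step of the pathway. The IPK2, ITPK and IPK1 kinases add phosphates up to phytate (inositol hexakisphosphate), and ITPK1 and the VIH-type kinases add further phosphates to give inositol pyrophosphates. These molecules bind the SPX domains of phosphate-sensing proteins, and PHO1, the phosphate exporter that loads the root xylem, carries such a domain in front of its membrane-bound EXS domain.

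Roots and leaves were taken for RNA sequencing when the untreated plants were 25 days old; they had grown in pots of Oil-Dri pellets fed with Hoagland nutrients. All plants carried pho1-4: KO is the knockout itself, Compl is the knockout complemented with the PHO1 gene, and EXS32 and EXS34 are separate lines of the knockout that express only its EXS domain, as a fusion with GFP. Each of the 8 combinations of organ and genotype had 2 libraries, no wild type was analysed here, and the promoter of the transgenes is not given in the sources used here. Nothing in the labels ties the 2 libraries of a group to different plants; the p-values below therefore rest on the spread between these libraries alone, which may be technical. The root labels and root file names gave the same genotype for 8 of 8 libraries, whereas for 8 of 8 leaf libraries they did not. The leaves labelled KO had files named for Compl, those labelled Compl had files named for EXS32, those labelled EXS32 had files named for EXS34, and those labelled EXS34 had files named for KO. Leaf libraries are grouped here by label with the file's genotype beside it. Either naming keeps the same 4 pairs of leaf libraries together, so the levels of each pair, the test across the 4 pairs and the contrast between organs are the same under both, while the genotype attached to a leaf difference is not.

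Gene-assigned reads per library numbered 20139794 to 31405117 in roots and 9465995 to 15530134 in leaves, which makes low leaf transcripts less precise. The summed level of 7 leaf markers was 145.6 to 351 CPM (read counts of a gene scaled to a common depth) in root libraries and 49060 to 58990 CPM in leaf libraries, and 8 root markers summed to 468.3 to 942.5 CPM in roots and 0.844 to 3.412 CPM in leaves. PHO1 itself ranged from 1184 to 2378 CPM in roots and from 55.9 to 133 CPM in leaves. None of the 6 root comparisons called PHO1, and its reads cannot check the labels because both the mutant allele and a transgene can give such reads. In roots, Compl replicate 1 and replicate 2 lay at 68.3 and 31.82 on the first principal component, which held 40.88% of the variance, while the other 6 libraries lay between -44.68 and 8.885.

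Levels are given throughout as CPM scaled by TMM factors over all 16 libraries, and levels are compared between genes only after division by exon length (CPM per kb). Differences are log2 fold changes with their standard error (SE) from edgeR's quasi-likelihood test, and a gene was called when its p-value, adjusted by Benjamini-Hochberg over all genes tested, was under 0.05. In roots the order of mean levels per kb was MIPS3 at 76.5 ± 19.0 CPM per kb (SD, n = 8 libraries over the 4 genotypes), AT3G01310 at 35.9 ± 8.66, MIPS1 at 32.5 ± 3.44, ITPK1 at 31.03 ± 3.95, ITPK4 at 17.1 ± 0.845, IPK2B at 11.7 ± 1.37, IPK2A at 11.4 ± 0.687, MIPS2 at 9.19 ± 1.78, IPK1 at 8.41 ± 0.563 and AT5G15070 at 5.77 ± 0.833. Neighbours in this order overlapped in their library ranges except ITPK1 and ITPK4, ITPK4 and IPK2B, and IPK1 and AT5G15070. In leaves the order was MIPS1 at 64.1 ± 24.5 CPM per kb, AT3G01310 at 58.8 ± 12.4, IPK2A at 34.7 ± 2.57, ITPK1 at 25.7 ± 3.09, MIPS3 at 25.6 ± 4.60, IPK2B at 14.2 ± 2.21, ITPK4 at 13.4 ± 1.35, IPK1 at 9.86 ± 0.854, MIPS2 at 5.13 ± 1.37 and AT5G15070 at 4.02 ± 2.72. The leaf neighbours whose ranges did not overlap were AT3G01310 and IPK2A, MIPS3 and IPK2B, ITPK4 and IPK1, and IPK1 and MIPS2. The wide SD of MIPS1 and AT5G15070 in leaves goes with the differences between leaf pairs described below.

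**Figure D1:**
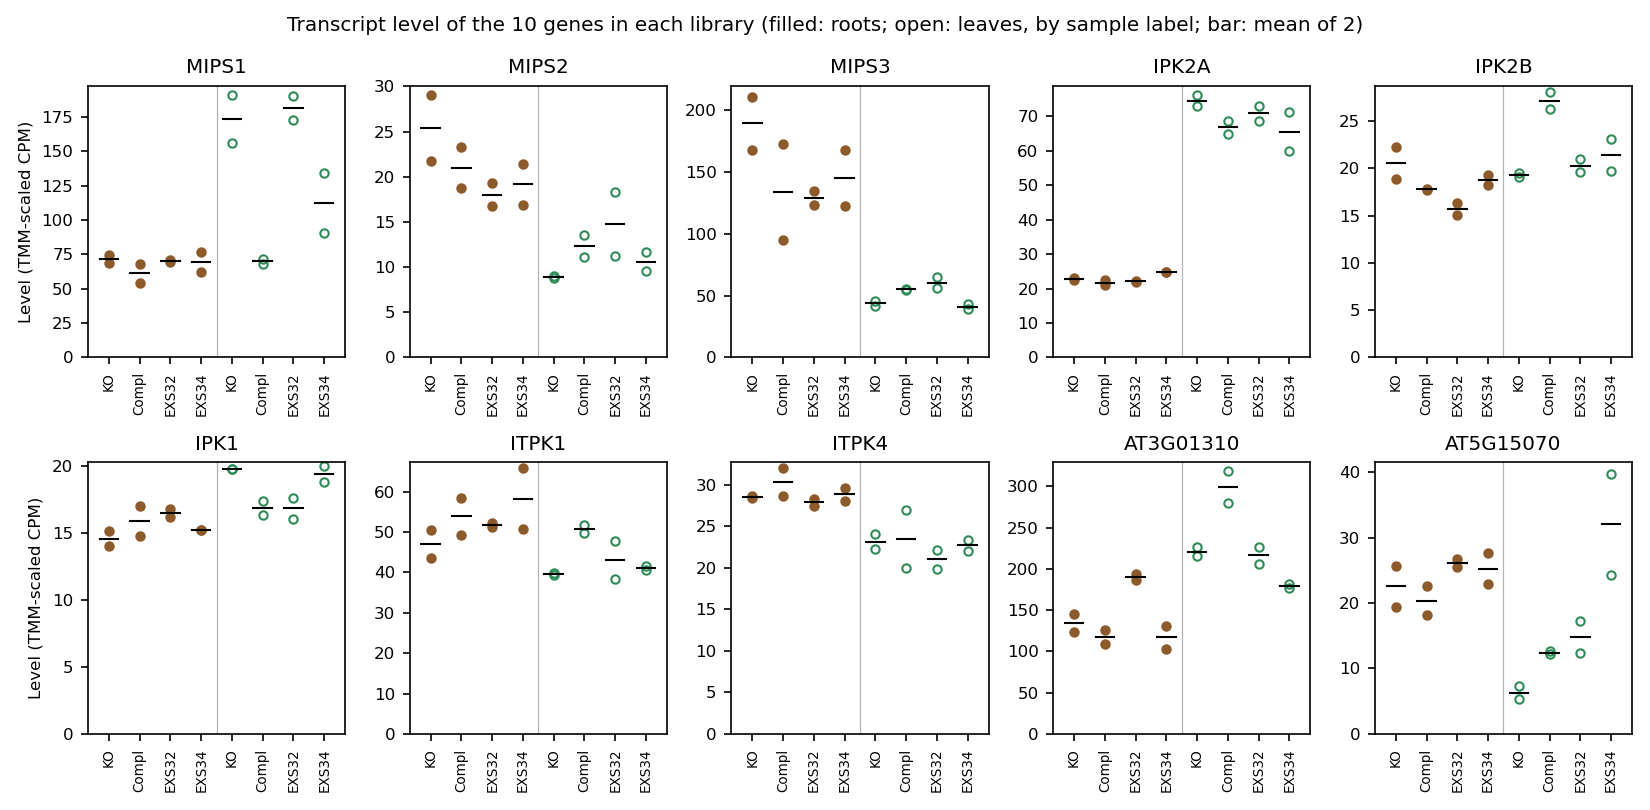
Level of the 10 genes in every library, in TMM-scaled CPM on linear axes that start at 0; filled points are roots, open points are leaves grouped by sample label, and each bar is the mean of the 2 libraries of a group. MIPS3 lies higher in every root library (94.7 to 211 CPM) than in any leaf library (38.9 to 64.7 CPM), IPK2A shows the opposite, and AT5G15070 spreads from 5.4 to 39.8 CPM among leaves.

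Between organs, 10 of the 10 genes were called, 5 higher and 5 lower in roots, beside 81.6% of all 21351 genes tested, of which 43.1% were higher and 38.4% lower in roots. With 10 genes, such a count is near the background. The median difference of the 10 genes was 0.02 on the log2 scale (roots minus leaves), beside 0.06 over all genes tested. The library ranges of the organs did not overlap for 3 of the 10 genes (IPK2A, ITPK4 and MIPS3; 30.0%), beside 50.7% of all genes tested. In such bulk samples fewer cells of a type and less RNA per cell cannot be told apart. Scaling by library size alone moved the median of all genes from 0.06 to 0.62 and the share of calls that were higher in roots from 52.9% to 73.6%.

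The synthases differed between organs in opposite directions. MIPS3 (AT5G10170, chr5:3187277-3190321) ranged from 94.7 to 211 CPM in roots, with a median of 151.6, and from 38.9 to 64.7 CPM in leaves, with a median of 50.1, a difference of 1.58 ± 0.12 (SE; adjusted p = 8.53e-08). MIPS2 (AT2G22240, chr2:9451605-9454300) ranged from 16.7 to 29.0 CPM in roots and from 8.82 to 18.3 CPM in leaves, and was higher in roots by 0.86 ± 0.12 (adjusted p = 1.76e-05). MIPS1 (AT4G39800, chr4:18469255-18472048) went the other way, from 53.9 to 76.8 CPM in roots and from 68.2 to 190.6 CPM in leaves (difference -0.88 ± 0.09, adjusted p = 9.64e-07). The MIPS1 ranges met because the leaf pair labelled Compl (files named EXS32) was as low as roots. As a share of the summed level of the 3 synthases per kb, MIPS3 held 58.8 to 70.4% in root libraries and 18.4 to 42.1% in leaf libraries, and MIPS1 held 21.3 to 34.3% in roots and 49.0 to 78.3% in leaves. MIPS2 held 6.68 to 9.98% in roots and 3.34 to 8.95% in leaves, the smallest share in every library.

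**Figure D2:**
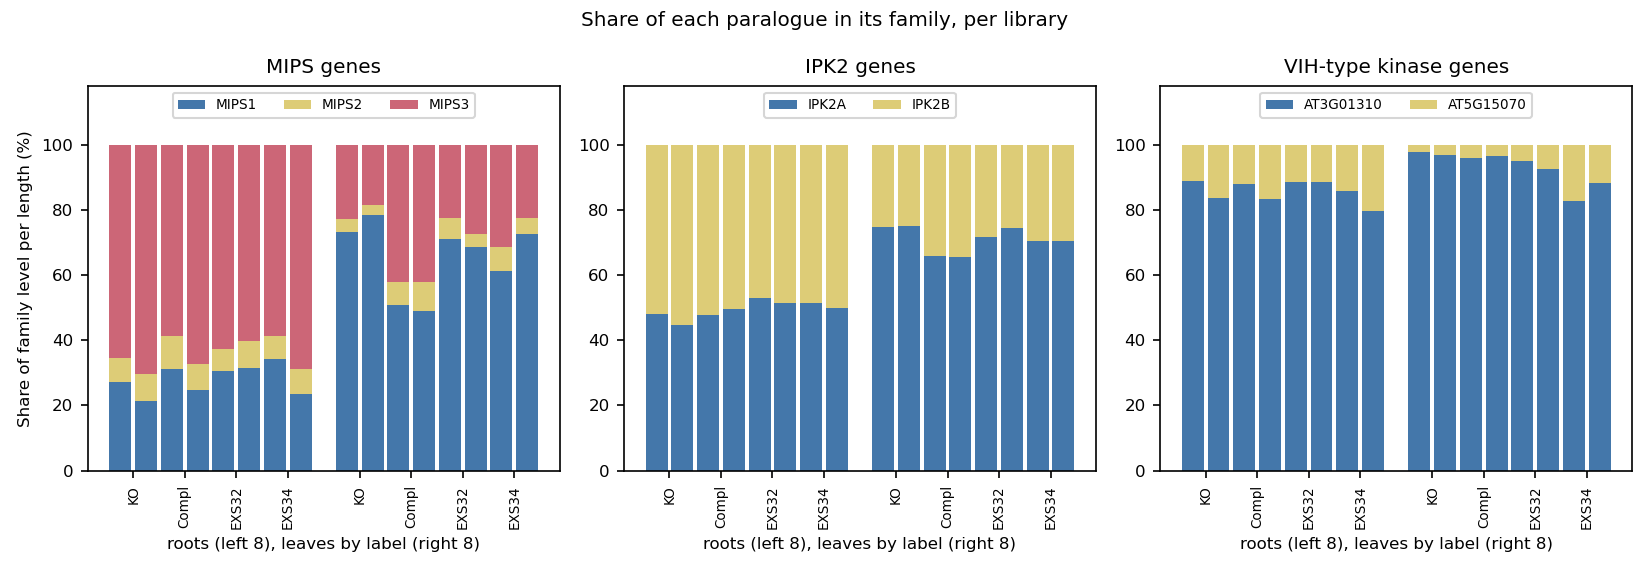
Share of each gene in the summed level per kb of its family, in percent, for the synthases, the IPK2 kinases and the VIH-type kinases; each bar is 1 library, with the 8 root libraries on the left and the 8 leaf libraries, grouped by label, on the right of each panel. MIPS3 takes 58.8 to 70.4% of the synthase level in roots and 18.4 to 42.1% in leaves.

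Promoter sequences are shown for the 3 genes that share a motif, which MIPS1 holds repeatedly. In the 250 bases before each annotated start (RefSeq, TAIR10.1), the G-box CACGTG, a core recognised by several transcription factor families, was found in 3 of the 10 promoters (MIPS1, MIPS2 and ITPK1), beside 5.91% of all 31911 promoters. MIPS1 holds it at -142 to -137, -81 to -76 and -65 to -60 from the start, and 26 promoters (0.0815%) hold at least 3 copies. That threshold equals the number in MIPS1, so the share is no test of whether MIPS1 is unusual. The sequences below run 5′ to 3′ on the gene's strand with the G-box in capitals, as the whole 250 bases for MIPS1 (chr4:18472049-18472298, minus strand) and as 60 bases around the single G-box for MIPS2 (chr2:9454330-9454389, minus strand) and ITPK1 (chr5:5509539-5509598, plus strand).
MIPS1: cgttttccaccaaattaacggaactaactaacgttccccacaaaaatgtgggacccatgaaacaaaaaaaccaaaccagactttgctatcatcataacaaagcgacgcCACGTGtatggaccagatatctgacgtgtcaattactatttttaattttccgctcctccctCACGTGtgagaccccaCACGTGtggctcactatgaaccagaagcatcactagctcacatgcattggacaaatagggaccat
MIPS2: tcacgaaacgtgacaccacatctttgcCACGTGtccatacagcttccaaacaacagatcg
ITPK1: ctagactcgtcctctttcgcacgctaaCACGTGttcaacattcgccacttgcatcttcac
Each motif was searched on both strands. The P1BS site GNATATNC, bound by the phosphate starvation regulator PHR1, was in 0 of the 10 promoters and 5.25% of all, and the evening element AAAATATCT was in 0 and 2.22%. The site CACGCGC, bound by FHY3, was in 1 of the 10 (MIPS2, without overlap with its G-box) and 0.965% of all. MIPS1 was higher in leaves, and MIPS2 and ITPK1 were higher in roots, so the genes with a G-box did not share a direction between organs. By edgeR's test across the 4 leaf pairs MIPS1 was called, while ITPK1 (adjusted p = 0.108) and MIPS2 (adjusted p = 0.133) were not. A role of the motif in any of these differences was not tested.

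Among the kinases that lead to phytate, IPK2A was lower in every root library than in any leaf library. With library size alone its organ difference was -1.04, beside 2.14 for MIPS3. IPK2A (AT5G07370, chr5:2330338-2332338), which phosphorylates inositol trisphosphate, ranged from 21.0 to 24.9 CPM in roots and from 59.9 to 76.1 CPM in leaves, without overlap (difference -1.60 ± 0.05, adjusted p = 2.97e-12). Its paralogue IPK2B (AT5G61760, chr5:24813660-24815458) ranged from 15.1 to 22.2 CPM in roots and from 19.1 to 28.1 CPM in leaves (-0.27 ± 0.06, adjusted p = 0.00101). IPK2A therefore held 44.6 to 53.1% of the IPK2 level per kb in roots and 65.6 to 75.2% in leaves. IPK1 (AT5G42810, chr5:17166702-17169459), the kinase that completes phytate, ranged from 14.0 to 17.0 CPM in roots and from 16.1 to 19.98 CPM in leaves (-0.23 ± 0.06, adjusted p = 0.00208). The direction of IPK2B and IPK1 depended on the scaling: with library size alone they were 0.29 and 0.33 higher in roots, below the median shift of 0.62. IPK1 shares 177 exon bases with a gene on the opposite strand, IPK2A 24, MIPS2 76 and MIPS3 36, and since the strand setting of the counts is not given in the sources used here, reads from these stretches are uncertain.

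The ITPK genes were slightly higher in roots. ITPK1 (AT5G16760, chr5:5509625-5511322), which also makes pyrophosphates from phytate, ranged from 43.5 to 65.8 CPM in roots and from 38.3 to 51.6 CPM in leaves (0.28 ± 0.07, adjusted p = 0.00303). ITPK4 (AT2G43980, chr2:18208253-18211644), a kinase of the same family, ranged from 27.4 to 32.1 CPM in roots and from 19.8 to 26.9 CPM in leaves (0.36 ± 0.06, adjusted p = 2.13e-04). The share of ITPK1 in the summed level per kb of these 2 genes overlapped between organs, at 60.4 to 70.1% in roots and 62.3 to 72.0% in leaves.

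The VIH-type kinases, which act on the last step towards the most phosphorylated inositol pyrophosphates, differed in opposite directions. AT3G01310 (chr3:93995-102010) ranged from 102.9 to 193.8 CPM in roots and from 176.3 to 318.1 CPM in leaves (-0.72 ± 0.07, adjusted p = 3.31e-07). AT5G15070 (chr5:4876515-4885836) ranged from 18.2 to 27.6 CPM in roots and from 5.4 to 39.8 CPM in leaves (0.76 ± 0.12, adjusted p = 8.41e-05). AT5G15070 held 11.3 to 20.4% of the summed VIH-type level per kb in roots and 2.22 to 17.3% in leaves. Its organ ranges overlapped because the leaf pair labelled EXS34 (files named KO) reached root levels, while the other 6 leaf libraries lay below every root library.

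**Figure D3:**
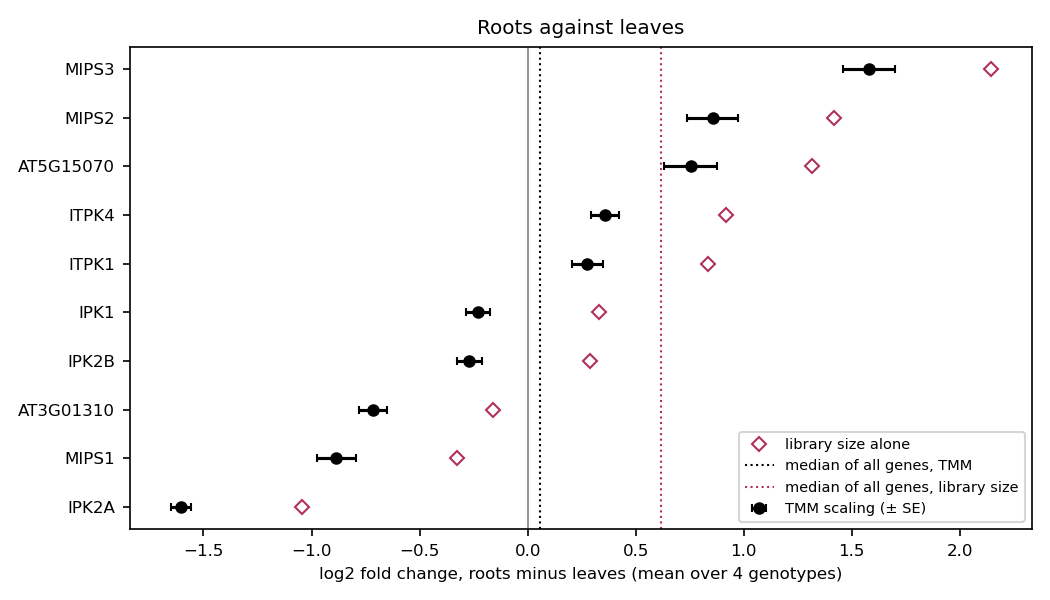
Log2 fold change between roots and leaves (roots minus leaves, mean over the 4 genotypes) for the 10 genes; black points with bars are the estimate with TMM scaling and its standard error, open diamonds the estimate with library size alone, and the dotted lines the median of all genes under each scaling (0.06 and 0.62). MIPS3 (1.58) and IPK2A (-1.60) lie farthest from the medians, and IPK1 and IPK2B change sign with the scaling.

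Within roots, the test across the 4 genotypes called 0 of the 10 genes, beside 3.98% of the 20597 genes tested, so a count of 0 is near the background. By edgeR 1 of the 10 had an unadjusted p under 0.05, AT3G01310 (adjusted p = 0.0697), beside 4916 of all genes. DESeq2's likelihood ratio test called 1, also AT3G01310, beside 14.6% of all genes. AT3G01310 stood at 145.6 and 123.9 CPM in KO roots, 126.1 and 108.5 in Compl roots, 193.8 and 186.1 in EXS32 roots and 131.2 and 102.9 in EXS34 roots. Both EXS32 libraries lay above the other 6. Of the 8 root markers, 3 were called across the 4 root genotypes, beside the 3.98% of all genes. In EXS32 against Compl 3 root markers were called, all lower in EXS32, beside 12.4% of all genes. Their part in the differences of AT3G01310 was not tested. EXS32 against Compl called 1 of the 10 genes, AT3G01310, which was higher in EXS32 by 0.69 ± 0.15 (adjusted p = 0.0268), beside 12.4% of all genes tested. This call was lost without Compl replicate 2, EXS32 replicate 1 or EXS32 replicate 2 (adjusted p = 0.0644, 0.155 and 0.143). EXS34 against EXS32 called 0 of the 10 genes by edgeR (0.908% of all genes). AT3G01310 had a difference of -0.70 ± 0.15 there, with an adjusted p of 0.0809 by edgeR. It was the only gene of the 10 with an unadjusted p under 0.05, beside 3632 of all genes. DESeq2 called it, beside 5.27% of all genes.

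The other root comparisons each called 0 of the 10 genes with edgeR, DESeq2 and limma-voom. By edgeR the number with an unadjusted p under 0.05 was 3 for EXS32 against KO (AT3G01310, IPK2B and MIPS2). Over all 20597 genes tested, this number was 2373. For the rest it was 0 of the 10, beside 4090 of all genes for KO against Compl and 2969 for EXS34 against Compl. The comparisons were KO against Compl (0.884% of all genes called), EXS32 against KO (0.126%), EXS34 against Compl (0.131%) and EXS34 against KO (0.00%; 1871 genes of all had an unadjusted p under 0.05 and DESeq2 called 100). AT5G15070 lay at 19.5 and 25.6 CPM in KO roots, 18.2 and 22.6 in Compl, 26.7 and 25.5 in EXS32 and 22.9 and 27.6 in EXS34, and MIPS1 lay between 53.9 and 76.8 CPM in the 8 root libraries. No genotype lay apart from all 3 others for either gene. MIPS3 lay at 168.2 and 211.0 CPM in KO roots, 94.7 and 172.8 in Compl, 135.0 and 123.5 in EXS32 and 122.9 and 168.2 in EXS34, so that Compl replicate 1 alone set the lower end.

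In leaves, 5 of the 10 genes differed across the 4 pairs, beside 26.9% of the 18548 genes tested: AT5G15070 (adjusted p = 0.00305), AT3G01310 (0.00322), MIPS1 (0.00410), MIPS3 (0.0107) and IPK2B (0.0465). The first 3 were called under each of the 15 alternative settings run. MIPS3 was lost in 1, the fit of all 16 libraries (adjusted p = 0.248), and IPK2B in 10 (adjusted p up to 0.317), among them DESeq2 and the loss of any library labelled KO, Compl or EXS32. All 7 leaf markers were called in the same test, and their part in these differences was not tested. Not called were ITPK1 (adjusted p = 0.108), MIPS2 (0.133), IPK1 (0.290), IPK2A (0.408) and ITPK4 (0.838), which lay within 38.3 to 51.6, 8.82 to 18.3, 16.1 to 19.98, 59.9 to 76.1 and 19.8 to 26.9 CPM, respectively.

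Relative to its level, AT5G15070 had the widest range of the 10 genes among leaf libraries. It stood at 5.396 and 7.249 CPM (68 and 83 reads) in leaves labelled KO (files named Compl), 12.6 and 12.2 CPM in leaves labelled Compl (files EXS32), 12.3 and 17.2 CPM in leaves labelled EXS32 (files EXS34), and 39.8 and 24.4 CPM in leaves labelled EXS34 (files KO). The pair labelled KO was lowest and the pair labelled EXS34 highest, and neither overlapped another pair. The difference between them was 2.36 ± 0.28, a 5.12-fold higher level in leaves labelled EXS34 (adjusted p = 0.00398); under the file names this is KO against Compl. It was the only gene of the 10 called between these pairs (6.41% of all genes), and the call was lost without the library labelled KO replicate 1 (adjusted p = 0.0591).

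MIPS1 and AT3G01310 separated a different pair. MIPS1 stood at 156.0 and 190.6 CPM in leaves labelled KO (files Compl), 71.7 and 68.2 CPM in leaves labelled Compl (files EXS32), 190.1 and 172.9 CPM in leaves labelled EXS32 (files EXS34), and 90.3 and 133.8 CPM in leaves labelled EXS34 (files KO). AT3G01310 stood at 226.2 and 215.5, 279.9 and 318.1, 226.9 and 206.2, and 182.0 and 176.3 CPM in the same order. The pair labelled Compl was thus lowest for MIPS1 and highest for AT3G01310, without overlap with another pair. Between leaves labelled KO and Compl (under the file names, Compl against EXS32), 4 of the 10 genes were called, beside 21.1% of all genes: MIPS1 was higher in the pair labelled KO by 1.302 ± 0.18 (adjusted p = 0.00231), and AT3G01310 (-0.44 ± 0.09, adjusted p = 0.0105), IPK2B (-0.50 ± 0.12, adjusted p = 0.0202) and AT5G15070 (-0.98 ± 0.29, adjusted p = 0.0473) were lower. The MIPS1 call held under each of the 16 alternatives that kept the labels. AT3G01310 was lost without either library labelled KO or without Compl replicate 2. IPK2B was lost under DESeq2 or without any of the 4 libraries compared. AT5G15070 was lost in 7 alternatives: limma-voom, a replicate block, and leaving out any of these 4 libraries or EXS32 replicate 1.

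Between leaves labelled EXS32 and Compl (under the file names, EXS34 against EXS32), 2 of the 10 genes were called, beside 14.8% of all genes. MIPS1 was higher by 1.38 ± 0.18 (adjusted p = 0.00244) and AT3G01310 lower (-0.46 ± 0.09, adjusted p = 0.0124) in the pair labelled EXS32; AT3G01310 was lost without Compl replicate 2 or EXS32 replicate 2 (up to 0.0994). Between leaves labelled EXS34 and Compl (under the file names, KO against EXS32), 4 of the 10 genes were called, beside 18.4% of all genes. AT3G01310 was lower in the pair labelled EXS34 (-0.74 ± 0.10, adjusted p = 0.00131, called under each of the 16 alternatives that kept the labels). AT5G15070 was higher (1.37 ± 0.27, adjusted p = 0.0111), but not without Compl replicate 1 or 2 (up to 0.0882). MIPS1 (0.67 ± 0.18, adjusted p = 0.0390) and MIPS3 (-0.43 ± 0.11, adjusted p = 0.0266) passed as well and were lost under 7 and 8 of the 16 alternatives (up to 0.178 and 0.293). In both genes these include the loss of Compl replicate 1 or 2 or of EXS34 replicate 2, with either EXS32 library for MIPS1 and either KO library for MIPS3.

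MIPS3 followed a further order. It stood at 45.5 and 41.8 CPM in leaves labelled KO (files Compl), 55.5 and 54.6 CPM in those labelled Compl (files EXS32), 56.1 and 64.7 CPM in those labelled EXS32 (files EXS34) and 43.0 and 38.9 CPM in those labelled EXS34 (files KO), so the pairs labelled Compl and EXS32 lay above the other pairs. Between leaves labelled EXS32 and KO (under the file names, EXS34 against Compl), 2 of the 10 genes were called, beside 5.93% of all genes: MIPS3 (0.48 ± 0.11, adjusted p = 0.0324) and AT5G15070 (1.25 ± 0.29, adjusted p = 0.0443). Each was lost without any of 6 libraries, those labelled KO, Compl and EXS32, and over all alternatives the adjusted p reached 0.325 and 0.277. Between leaves labelled EXS34 and EXS32 (under the file names, KO against EXS34), 2 of the 10 genes were called, beside 5.69% of all genes. MIPS3 was lower in the pair labelled EXS34 (-0.57 ± 0.11, adjusted p = 0.0195), and AT5G15070 was higher (1.11 ± 0.26, adjusted p = 0.0474). MIPS3 was lost under 4 of the 16 alternatives, among them the loss of either library labelled EXS32. AT5G15070 was lost under 10, among them limma-voom, a replicate block and the loss of any of the 8 leaf libraries but EXS34 replicate 2. IPK2B stood at 19.1 and 19.6, 26.3 and 28.1, 21.0 and 19.6, and 19.7 and 23.1 CPM in the pairs labelled KO, Compl, EXS32 and EXS34, highest in the pair labelled Compl.

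Whether the differences between genotypes were the same in both organs was tested as an interaction over all 16 libraries. With leaves named by label, 4 of the 10 genes were called (AT3G01310, AT5G15070, MIPS1 and IPK2B), beside 18.8% of the 21351 genes tested. This test joins root and leaf genotypes by name and so depends on the leaf naming: with leaves named by their files, AT3G01310 was not called (adjusted p = 0.233), the other 3 were, and 1431 in place of 4009 genes were called in all.

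Other genes of the pathway were counted from lists of 39 loci: further kinases, inositol phosphatases, pyrophosphate phosphatases, phospholipases C, genes that use inositol, and transporters. Between organs, 35 of the 37 that could be tested were called, 20 higher in roots and 15 higher in leaves, beside the 81.6% of all genes given above (43.1% higher, 38.4% lower). The named examples, the 2 with the largest difference in each list, were 2PGK1 (6.81) and MIK (1.95), a myo-inositol kinase, among kinases; IMPL1 (-3.72) and 5PTASE2 (-0.81) among phosphatases; PFA-DSP3 (1.33) and PFA-DSP4 (-0.86) among pyrophosphate phosphatases; PLC9 (6.25) and PLC8 (-6.12) among phospholipases C; GOLS4 (8.64) and GOLS2 (-2.52), galactinol synthases, among users of inositol; and ABCC5 (0.97), a vacuolar phytate transporter, and INT1 (-0.80), an inositol transporter. These values are log2 differences, roots minus leaves. The largest rest on few reads in the lower organ, so their size is imprecise. GOLS4 had 0 to 5 reads per leaf library, 2PGK1 4 to 15 and PLC9 3 to 34, and PLC8 had 10 to 24 per root library. GOLS4 passed the filter on low counts only through roots, where it is high, so its call is no support for a difference.

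In roots, 9 of 37 of these loci differed across the 4 genotypes, beside 3.98% of all genes tested: 2PGK1 (adjusted p = 0.0123), ITPK2 (0.0190), SAL1 (0.0212), INT4 (0.0216), PLC4 (0.0277), MIOX2 (0.0363), GOLS1 (0.0391), PFA-DSP1 (0.0400) and INT1 (0.0460). ITPK2, a paralogue of ITPK1, stood at 30.3 and 30.5 CPM in KO roots, 14.5 and 11.8 in Compl, 36.7 and 38.6 in EXS32 and 25.1 and 19.4 in EXS34. 2PGK1, whose rice relative LPA1 affects seed phytate, stood at 111.7 and 109.7, 35.5 and 34.0, 99.0 and 135.7, and 92.0 and 106.0 CPM in the same order. Compl roots were lowest for both genes, without overlap with the other groups. KO against Compl in roots called 3 of the 37, ITPK2 (1.201 ± 0.15, adjusted p = 0.0309), 2PGK1 (1.66 ± 0.15, adjusted p = 0.0185) and the galactinol synthase GOLS1 (0.73 ± 0.11, adjusted p = 0.0435), all higher in KO, beside 0.884% of all genes. None of these 3 calls held without KO replicate 1, KO replicate 2 or Compl replicate 1. ITPK2 and GOLS1 were also lost without either EXS32 library, and GOLS1 without either EXS34 library. The adjusted p reached 0.0970 for 2PGK1, 0.160 for ITPK2 and 0.211 for GOLS1. The count across the 4 genotypes fell most without either EXS32 library. It also fell without either KO library, either EXS34 library or Compl replicate 1. Calls over all genes also changed with the library left out, so these falls cannot be read as particular to the 37 loci. EXS32 against Compl in roots called 12 of the 37, 6 in each direction, beside 12.4% of all genes. The count fell most without either EXS32 library, and also without either KO library or Compl replicate 1. Calls over all genes changed as well. Those named as higher in EXS32 were 2PGK1 (1.75), MIOX2 (1.60), ITPK2 (1.51), INT4 (1.10) and INT1 (0.84). Those named as lower were GOLS4 (-2.94), PFA-DSP1 (-1.19), PFA-DSP3 (-0.91), PLC4 (-0.89) and SAL1 (-0.73). Of these named genes, only 2PGK1 and ITPK2 kept their call with each of the 8 root libraries left out. The others were lost without either EXS32 library.

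In leaves, 19 of 36 of these loci differed across the 4 pairs, beside 26.9% of all genes tested. Fewer did without any 1 library labelled KO, Compl or EXS32, or without EXS34 replicate 1. Calls over all genes also changed with the library left out. Among the 19 were 4 of the 5 PFA-DSP genes, whose products remove phosphate from inositol pyrophosphates. PFA-DSP1, PFA-DSP2 and PFA-DSP4 kept their call with each of the 8 leaf libraries left out. PFA-DSP5 was lost without either library labelled Compl (adjusted p up to 0.0583). PFA-DSP1 stood at 4.21 and 3.32 CPM in leaves labelled KO (files Compl), 3.85 and 3.86 in those labelled Compl (files EXS32), 5.64 and 7.10 in those labelled EXS32 (files EXS34) and 25.7 and 16.2 in those labelled EXS34 (files KO). PFA-DSP2 stood at 7.62 and 11.4, 14.8 and 15.2, 23.7 and 33.1, and 47.0 and 48.7 CPM, and PFA-DSP4 at 8.97 and 13.5, 14.1 and 13.9, 16.4 and 18.6, and 45.7 and 34.6 CPM in the same order. The pair labelled EXS34 was highest for each of these 3 genes, as it was for AT5G15070, and overlapped no other pair. Against the pair labelled KO (under the file names, KO against Compl), the log2 differences were 2.48 ± 0.26 for PFA-DSP1 (adjusted p = 0.00165), 2.34 ± 0.21 for PFA-DSP2 (adjusted p = 0.00114) and 1.85 ± 0.20 for PFA-DSP4 (adjusted p = 0.00240). PFA-DSP5 was instead highest in the pair labelled Compl (files EXS32), at 16.6 and 16.5 CPM against 7.77 to 10.6 CPM elsewhere in leaves. In roots, neither EXS34 nor KO lay above all other groups for any of the 5 PFA-DSP genes, and PFA-DSP1 alone among them was called across genotypes.

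**Figure D4:**
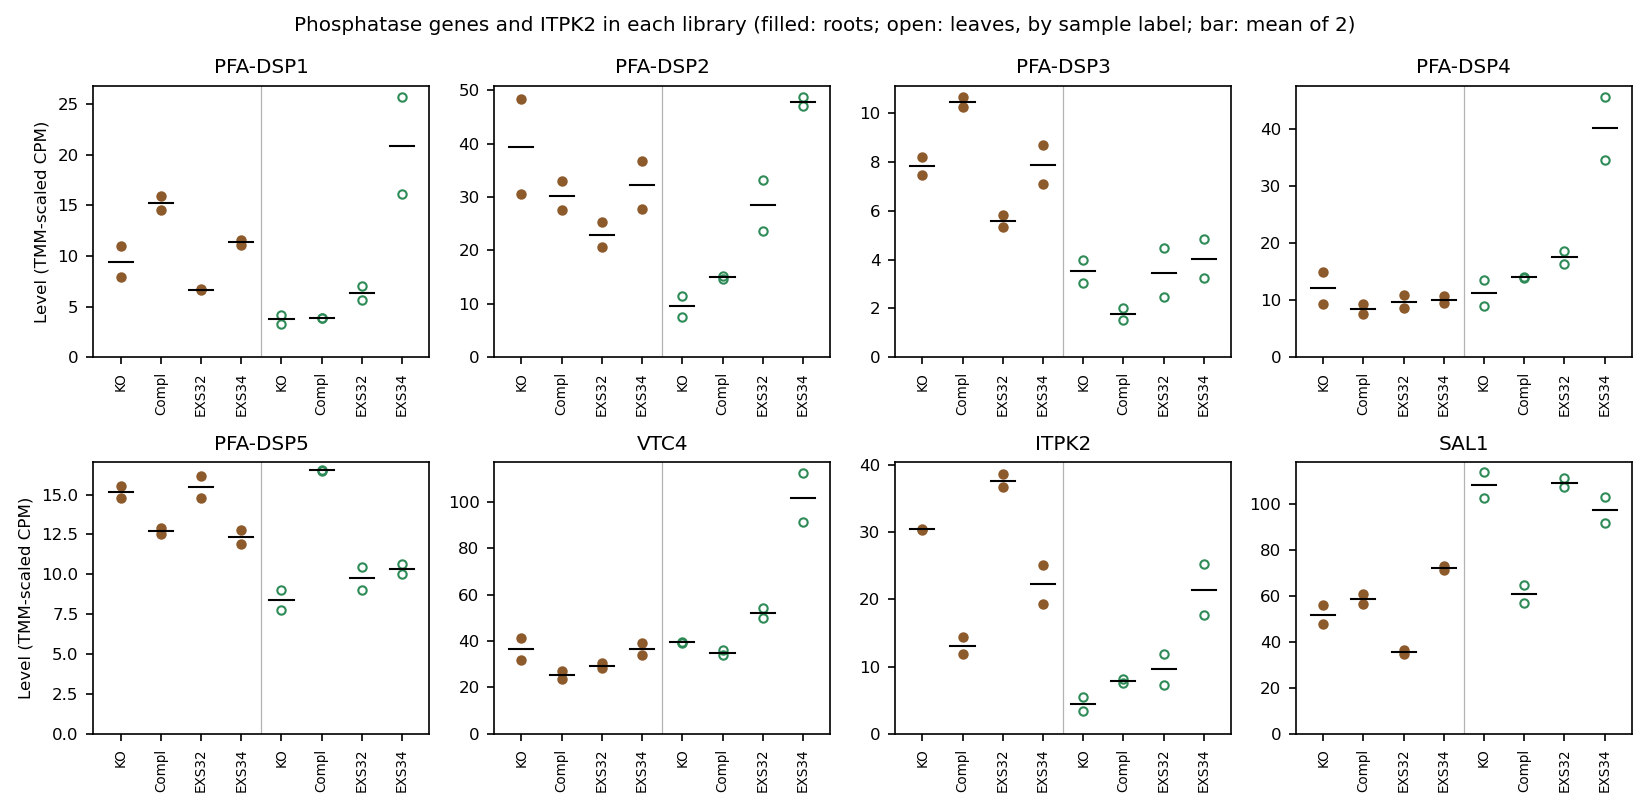
Level of the 5 PFA-DSP genes, VTC4, ITPK2 and SAL1 in every library, in TMM-scaled CPM on linear axes that start at 0; filled points are roots, open points are leaves grouped by label, and each bar is the mean of the 2 libraries of a group. In leaves the pair labelled EXS34, whose files are named for KO, is highest for PFA-DSP1, PFA-DSP2, PFA-DSP4, VTC4 and ITPK2.

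The same pair was highest for ITPK2, at 25.2 and 17.7 CPM against 3.41 to 11.9 CPM in the other leaf libraries, and for VTC4, an inositol and galactose phosphate phosphatase, at 112.5 and 91.2 CPM against 34.1 to 54.3. Against the pair labelled KO (under the file names, KO against Compl), ITPK2 was higher by 2.28 ± 0.30 (adjusted p = 0.00549) and VTC4 by 1.38 ± 0.12 (adjusted p = 8.97e-04). ITPK2 was lost without the library labelled KO replicate 1 (adjusted p = 0.0615). That comparison called 9 of 36 loci, beside 6.41% of all genes. Fewer were called without any 1 library labelled KO, Compl or EXS34, and calls over all genes also changed. PLC2 (0.54) and the phosphatidylinositol synthase PIS2 (0.63) were also higher, and IMPL1 (-0.38) and PLC1 (-0.47) were lower. Each of these 4 was lost without either library labelled KO. Leaving out any 1 library labelled Compl or EXS34 also lost calls, IMPL1 among them. SAL1, an inositol and nucleotide phosphatase, was lowest in the pair labelled Compl (files EXS32), at 65.0 and 56.9 CPM against 91.9 to 114.3 in the other 6 leaf libraries. The pair labelled Compl was also highest for MIOX2, a myo-inositol oxygenase, with a mean of 41.4 ± 9.24 CPM (SD, n = 2) beside 5.29 ± 0.817 in the pair labelled KO (-2.96 ± 0.62, adjusted p = 0.0252). Between leaves labelled KO and Compl (under the file names, Compl against EXS32), 10 of 36 loci were called, beside 21.1% of all genes. Fewer were called without any 1 of the 4 libraries compared, and calls over all genes also changed with the library left out. Higher in the pair labelled KO were SAL1 (0.82), 2PGK2 (0.50) and IMPL1 (0.31). Lower, beside MIOX2, were PFA-DSP5 (-0.98), MIOX4 (-2.17), PLC7 (-1.39), MIK (-0.72), PIS2 (-0.54) and PLC2 (-0.45). Of these, SAL1 and PFA-DSP5 kept their call with each of the 8 leaf libraries left out.

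The loci whose levels moved most like those of the called genes were found by Pearson's r of log2 CPM centred within each organ over the 16 libraries, among 16294 loci. The libraries of a group and of an organ share their source, so r is given as a description. AT5G15070 was most like PAP12 (r = 0.948), a purple acid phosphatase, AT4G32270 (0.939) and BETA-VPE (0.937), a vacuolar processing enzyme; within roots alone these r were 0.338, 0.322 and 0.144, so the likeness lay in the leaf libraries. MIPS1 was most like BAM6 (0.934), KAC1 (0.929) and AT1G27480 (0.918), again with low r within roots (0.356, 0.342 and 0.00787). AT3G01310 was most like AT5G63620 (0.941), AT2G40420 (0.938) and AT4G02480 (0.932), with r of 0.950 to 0.990 within roots. MIPS3 was most like MOL1 (0.939) and IPK2B like AT5G63710 (0.929). Among the 10 genes themselves, MIPS2 and MIPS3 had an r of 0.660, MIPS1 and IPK2A 0.582, and IPK1 ran against MIPS2 (-0.805) and MIPS3 (-0.768), while the VIH-type genes had an r of -0.281.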

How the data were processed

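Per the labels, total RNA of roots and leaves was made into stranded mRNA libraries. The authors deposited raw read counts per gene for 16 libraries, with 32678 loci per file and 5 lines at the end for reads outside genes. The tools listed are limma, edgeR, R 3.1.1, HTSeq 0.5.4p3, TopHat2 2.0.9 and cutadapt 1.2.1, and the build is TAIR10, per the submitters' processing notes; the strand setting is not given in the sources used here. These end lines (8.57 to 10.26% of reads in roots, 7.26 to 7.77% in leaves) were left out.

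Counts were fitted with edgeR 4.0.16 in R 4.3.3 (filterByExpr with minimum count 10 and minimum total 15, TMM, robust quasi-likelihood test, Benjamini-Hochberg, threshold 0.05), per organ for genotypes and over all 16 libraries for organ and interaction. This left 20597 genes in roots, 18548 in leaves and 21351 in the joint fit. Each standard error was taken as |log2 fold change| over the root of F. DESeq2 1.42.0 and limma 3.58.1 (voom) served as alternatives, beside other scaling, no filter, a replicate block, other samples in the fit, each library left out and leaf file names.

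Exon lengths, coordinates and promoters came from RefSeq TAIR10.1 (31912 loci matched by locus tag). No stretch of 50 exon bases of the 10 genes recurs elsewhere in that genome. Libraries within groups had a chi-square per degree of freedom of 4.30 to 40.5, above counting error, and each counts as 1 replicate. The 10 genes and the lists were chosen with earlier results of these data known. All 10 genes were named; of the other lists, the 2 called genes with the largest organ difference each, and up to 10 called genes per genotype comparison, were nameable. The likeness within roots and the remarks on which pair was highest were added after the values were seen. The likeness used log2 CPM plus 0.5 and loci with a mean of at least 5 CPM.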

Additional observations from a re-analysis of the deposited data

Results flagged for a closer look

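The interaction of organ and genotype was tested over all 16 libraries with edgeR's quasi-likelihood test. With leaves named by label it called 4 of the 10 genes, beside 18.8% of all genes tested. With leaves named by label, the adjusted p was 0.007108 for AT3G01310, 0.007246 for AT5G15070, 0.01813 for MIPS1 and 0.04552 for IPK2B. With leaves named by their files, the adjusted p was 0.2325, 0.01227, 0.0115 and 0.04175 in the same order. AT3G01310 was thus not called by file names, under which 6.7% of all genes were. AT3G01310 and AT5G15070 were called under each of the 22 alternatives that kept the labels, MIPS1 in 21 (not without the leaf library labelled Compl replicate 2, adjusted p = 0.0563), and IPK2B in 4. AT3G01310 was highest in EXS32 among roots (193.8 and 186.1 CPM) and in the pair labelled Compl, with files named EXS32, among leaves (279.9 and 318.1 CPM).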

How the results depend on the processing

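Of the 10 genes' calls, the organ differences of MIPS1, MIPS2, MIPS3, IPK2A, ITPK1, ITPK4, AT3G01310 and AT5G15070 kept direction and call under each of the 22 alternatives. Scaling by library size alone reversed IPK1 (0.331) and IPK2B (0.2903). Naming leaves by their files reversed AT3G01310 in EXS32 against Compl (0.4436) and against KO (0.7409), AT5G15070 in EXS32 against KO (-1.373), EXS34 against KO (-1.111) and KO against Compl (2.357), IPK2B in EXS32 against Compl (0.4959) and KO against Compl (0.1481), MIPS1 in EXS32 against Compl (-1.302) and KO (-0.6737), EXS34 against EXS32 (1.383) and KO against Compl (-0.6283), and MIPS3 in EXS34 against Compl (0.4848), EXS32 (0.1446) and KO (0.5708), because the same pairs carry other names.

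That naming moved the genes called of 10 in leaves to 4 in EXS32 against Compl (21.1% of all genes) and 4 in EXS32 against KO (18.4%). It gave 2 in EXS34 against Compl (5.93%), 2 in EXS34 against KO (5.69%) and 1 in KO against Compl (6.41%). EXS32 against KO in leaves gave 1 under DESeq2 (6.1% of all genes), limma-voom (5.89%) and the fit of all 16 libraries. EXS34 against KO in leaves gave 2 under DESeq2 (5.2%). With only the 4 libraries compared, EXS34 against Compl in leaves gave 2 and EXS34 against EXS32 gave 0. The latter gave 1 with all 16. In roots, EXS34 against EXS32 gave 1 under DESeq2 (5.27% of all genes) and with all 16 libraries. The root test across genotypes also gave 1 under DESeq2 (14.6%) and with all 16 libraries. Leaving out 1 library at a time gave 10 to 10 between organs, 2 to 4 for the interaction, 4 to 6 across leaves and 0 to 0 across roots; in leaves 1 to 6 for KO against Compl, 0 to 2 for EXS32 and EXS34 against KO, 1 to 3 for EXS32 and 1 to 4 for EXS34 against Compl and 0 to 3 for EXS34 against EXS32; in roots 0 to 1 for EXS32 against Compl and 0 to 0 in the others. Calls over all genes also changed with the library left out in each comparison, so these changes cannot be read as particular to the 10 genes. The cause of these changes was not tested.

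Over all genes, the root test across genotypes called 820 with edgeR and 3006 with DESeq2, and 10 to 1670 without 1 library; the leaf test called 4981, or 2211 to 5770; the interaction called 4009, or 1431 by file names. Same-numbered libraries deviated together by r of -0.251 to 0.2189 in roots and 0.036 to 0.3347 in leaves, and 2 of 8 root and 8 of 8 leaf libraries correlated best with their own number. The 2 libraries of a group deviate equally and oppositely, so these counts follow from the same r values and add no support. The leaf values hint at pairing, but not every r was over 0.1 and the labels tie the numbers to no shared plant or day, so the block stayed an alternative. A replicate block called 1 of the 10 genes across root genotypes (638 of all genes). In leaves it called 2 in EXS34 against KO (10.5% of all genes). By edgeR with the block, IPK1 was lost between organs (adjusted p = 0.0531). The block also lost AT5G15070 in leaves in KO against Compl (0.0669) and EXS34 against EXS32 (0.0540). It also called ITPK1 (0.0338) and MIPS3 (0.0431) in KO against Compl, IPK2B in EXS32 against Compl (0.0454), MIPS1 in EXS34 against EXS32 (0.0262) and KO (0.0393), all in leaves, and MIPS2 in the interaction (0.0402). Across leaves it called 6491 of all genes. Leaf reads of AT5G15070 (68 to 412) limit its precision there.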
